A study of Mus musculus with 14 samples.

Results

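The 10 genes described here encode the receptors of the interleukin-2 cytokine family on T cells (Il2ra, Il2rb, Il2rg, Il7r, Il15ra and Il21r), the kinases attached to them (Jak1 and Jak3) and the transcription factors these kinases switch on (Stat5a and Stat5b). They were taken by name, and all 10 were found among the 21887 protein-coding genes of the gene table. CUT&RUN, a method in which a nuclease guided by an antibody cuts out the chromatin around its target, had been run on mouse Th1 cells, the T helper cells that make interferon-gamma. Naive CD4+ T cells from spleen were activated on plate-bound anti-CD3 with soluble anti-CD28. They were kept for 6 days with IL-12 (10 ng/mL) and IL-2 (1 ng/mL). Every library therefore comes from cells that were receiving IL-2, the ligand of the receptor formed by Il2ra, Il2rb and Il2rg. One group had the C57BL/6J background strain (WT) and the other the strain labelled C57BL/6J-Ets1-SE-KO (KO). That label names a knocked-out element at the Ets1 gene without spelling out SE or giving its coordinates, and neither the age nor the number of mice is given. The antibodies were against H3K27ac (an acetyl mark on histone H3 found at active promoters and enhancers), CTCF (a protein that holds chromatin loops in place) and ETS1 (the transcription factor encoded by Ets1), with 2 libraries per antibody and genotype, 12 in all. A control antibody (IgG) had 1 library per genotype. By title, the WT libraries of an antibody are 2 technical replicates from 1 biological replicate, whereas the KO libraries are 2 biological replicates. The deposited names number the 2 CTCF libraries of WT differently, so their kind of replicate is uncertain.

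In this pathway a cytokine brings receptor chains together, and the JAK kinases bound to the chains then phosphorylate STAT5 proteins, which move to the nucleus. Il2ra (CD25) turns the pair of Il2rb and Il2rg into a receptor of high affinity for IL-2, and Il2ra is itself a known STAT5 target in T cells. Il2rg, the common gamma chain, also pairs with Il7r and Il21r, and Il15ra presents IL-15 to the pair of Il2rb and Il2rg. Jak3 binds the common gamma chain and Jak1 the partner chain.

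The upstream sequences of 6 transcription starts show the contrast in ETS1 peaks among these genes. They are the 250 bases before a start, 5′ to 3′ on the gene's strand, from the RefSeq promoter table of GRCm38.p6. Capitals mark matches to GGAAGT or CCGGAAG (both ETS core sequences) or to TTCNNNGAA (the STAT5 palindrome), searched on both strands, so that GGAAGT on the other strand reads ACTTCC.
Il2ra (chr2:11642542-11642791, plus strand): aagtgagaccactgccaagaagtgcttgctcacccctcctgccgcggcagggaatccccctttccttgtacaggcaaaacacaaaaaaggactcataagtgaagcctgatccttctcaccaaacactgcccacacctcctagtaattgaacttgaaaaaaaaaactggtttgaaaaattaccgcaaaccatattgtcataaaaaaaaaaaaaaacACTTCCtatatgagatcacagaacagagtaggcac
Il7r (chr15:9529877-9530126, minus strand): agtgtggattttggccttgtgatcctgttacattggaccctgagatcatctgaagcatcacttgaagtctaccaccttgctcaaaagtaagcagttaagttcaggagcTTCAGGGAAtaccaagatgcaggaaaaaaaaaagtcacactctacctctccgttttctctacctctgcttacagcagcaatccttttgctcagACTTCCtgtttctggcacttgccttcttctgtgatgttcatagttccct
Il2rg (chrX:101268256-101268505, minus strand): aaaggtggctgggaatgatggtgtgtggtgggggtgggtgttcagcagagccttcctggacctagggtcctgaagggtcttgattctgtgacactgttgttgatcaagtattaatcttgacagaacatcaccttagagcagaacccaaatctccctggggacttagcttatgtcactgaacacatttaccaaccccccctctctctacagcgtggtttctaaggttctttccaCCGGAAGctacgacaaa
Jak3 (chr8:71676133-71676382, plus strand): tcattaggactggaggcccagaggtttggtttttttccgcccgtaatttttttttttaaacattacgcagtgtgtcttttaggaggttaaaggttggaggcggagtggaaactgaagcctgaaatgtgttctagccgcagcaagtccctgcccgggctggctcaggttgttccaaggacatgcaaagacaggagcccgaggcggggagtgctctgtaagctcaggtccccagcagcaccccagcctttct
Il21r (chr7:125603179-125603428, plus strand): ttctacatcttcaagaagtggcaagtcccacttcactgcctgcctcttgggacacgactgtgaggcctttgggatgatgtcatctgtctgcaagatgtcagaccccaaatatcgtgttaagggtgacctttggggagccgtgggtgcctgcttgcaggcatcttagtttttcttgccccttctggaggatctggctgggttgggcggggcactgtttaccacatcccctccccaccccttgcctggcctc
Stat5a (chr11:100859406-100859655, plus strand): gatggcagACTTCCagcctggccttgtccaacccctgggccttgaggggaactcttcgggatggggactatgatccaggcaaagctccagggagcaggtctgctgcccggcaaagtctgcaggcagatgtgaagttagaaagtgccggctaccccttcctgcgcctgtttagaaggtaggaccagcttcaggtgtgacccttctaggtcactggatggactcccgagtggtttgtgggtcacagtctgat
Il2ra and Il7r had no ETS1 peak over the listed start in any library. At Il2rg, Il21r and Jak3 an ETS1 peak lay over the start in all 4 ETS1 libraries. Over the first listed start of Stat5a, ETS1 was called in both WT libraries and neither KO library.

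The promoter table held 12 starts of 9 of the 10 genes, and Il2rb was not among them. An H3K27ac peak covered each of the 12 starts in all 4 libraries, against 33.2% of the 21263 starts of protein-coding genes. ETS1 was called over 4 of the 12 in all 4 libraries (Il21r, Il2rg, Jak3 and the second start of Stat5a), against 15.3% of all starts. The start of Jak1 had ETS1 in 3 libraries and lacked it in KO replicate 2. The second start of Il15ra and the first of Stat5b each had it in WT replicate 2 and KO replicate 1. CTCF was called in all 4 libraries over 2 of the 12 starts (Jak3 and the second start of Stat5a), against 23.2% of all starts. The 15.3% and 23.2% are shares of all starts, including those without H3K27ac. Shares among starts with H3K27ac, as all 12 had, were not worked out, so neither count can be called high or low for such starts. At Il21r and Jak1 the start had CTCF in both KO libraries and in neither WT library.

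ETS core matches were found at starts with and without an ETS1 peak. GGAAGT was found upstream of Il2ra, at positions -35 to -30 from the start, and upstream of Il7r, at -49 to -44, and neither start had an ETS1 peak over it. In WT replicate 2 an ETS1 peak lay just upstream of the Il7r match, from position -219 to -59. That peak covered the 5′ end of Il7r as used for the gene windows, at 9529941, which lies upstream of the listed start. GGAAGT was also at -242 to -237 of the first start of Stat5a, with ETS1 over the start in both WT libraries, and at -84 to -79 of the second start of Stat5b, with ETS1 in WT replicate 2. Jak3 and Il21r, with ETS1 in all 4 libraries, had neither ETS core in these 250 bases. CCGGAAG lay at positions -17 to -11 of Il2rg, which had ETS1 over the start in all 4 libraries, and -104 to -98 of the first start of Il15ra, which had it in none. Among 21263 upstream windows of this length, GGAAGT was in 20.4% and CCGGAAG in 8.98%. The closer comparison is with the 7053 windows whose start had H3K27ac in all 4 libraries, as each of the 12 had. In those 7053, GGAAGT was in 25.97% and CCGGAAG in 18.7%. TTCNNNGAA was in 6.58% of all windows, in 5.49% of the 7053, and among the 12 only at Il7r, at positions -142 to -134. A match to the core of the CTCF consensus was in 1.98% of all windows, in 2.42% of the 7053 and in none of the 12. These matches describe letters in the window and say nothing of whether a factor bound there.

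The files list called peaks and hold no read counts, which leaves sequencing depth unknown. The measure used is the covered length, the length of sequence under peaks within a gene and 10 kb on either side, which can be longer because a list is longer or its peaks wider as well as because more chromatin is marked. Over the whole genome, peaks of the H3K27ac libraries covered 21.8 and 21.3 Mb for WT and 28.01 and 28.5 Mb for KO. ETS1 was uneven within each genotype, the WT lists holding 14013 and 23419 peaks and the KO lists 40705 and 9344. As a check of the labels, H3K27ac covered 46.6 and 44.1 kb at Ets1 in WT and 24.2 and 23.4 kb in KO. Of 10 markers of CD4+ and Th1 cells, 9 had an H3K27ac peak in their windows, and the summed length of the list was 49.8 and 45.9 kb for WT cells, compared with 83.8 and 71.7 kb for KO. Cd4 had 5.23 and 5.35 kb in WT cells and 6.33 and 6.26 kb in KO cells, and Tbx21, the Th1 master regulator, 8.98, 9.68, 10.8 and 8.88 kb in the same order. Much of the rise of the sum was at Il12rb2, an IL-12 receptor chain, with 4.31 and 5.65 kb in WT cells and 19.4 and 13.9 kb in KO cells, and at Cd28, described further on. Cxcr3 had no peak, and Ifng had 0.727 kb in its flanks, in WT replicate 1 alone. The single IgG peak at the 10 genes was in KO, inside Jak1 at chromosome 4 from 101187501 to 101187683, within an H3K27ac and a CTCF region.

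H3K27ac peaks covered more sequence in KO at most of these genes, as they did at most genes with a peak. The increase was largest at Il2ra, and the covered length was shorter around Jak3. Both KO libraries lay above both WT libraries at 7 of the 10 genes, at Il2ra, Il2rb, Il2rg, Il7r, Il21r, Stat5a and Stat5b. The background for this was 54.0% of the 13284 protein-coding genes with an H3K27ac peak. Both WT libraries lay above both KO libraries at 1 of the 10, Jak3, against a background of 6.37%. The libraries of the genotypes overlapped at Il15ra and Jak1. On the log2 scale, with 1 kb added to each mean, the median KO to WT ratio over the 10 genes was 0.45, against 0.18 over all genes with a peak. As a share of the library's covered length, these medians were 0.077 and -0.032. On that scale both KO libraries were higher at 4 of the 10 genes, against 20.8%. An exact two-sided permutation test of 2 libraries against 2 cannot give a p below 0.33, the value it takes wherever the genotypes do not overlap, so a difference is described here as overlapping or not. The spread between WT libraries is technical by title, and that between KO libraries biological.

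**Figure D1:**
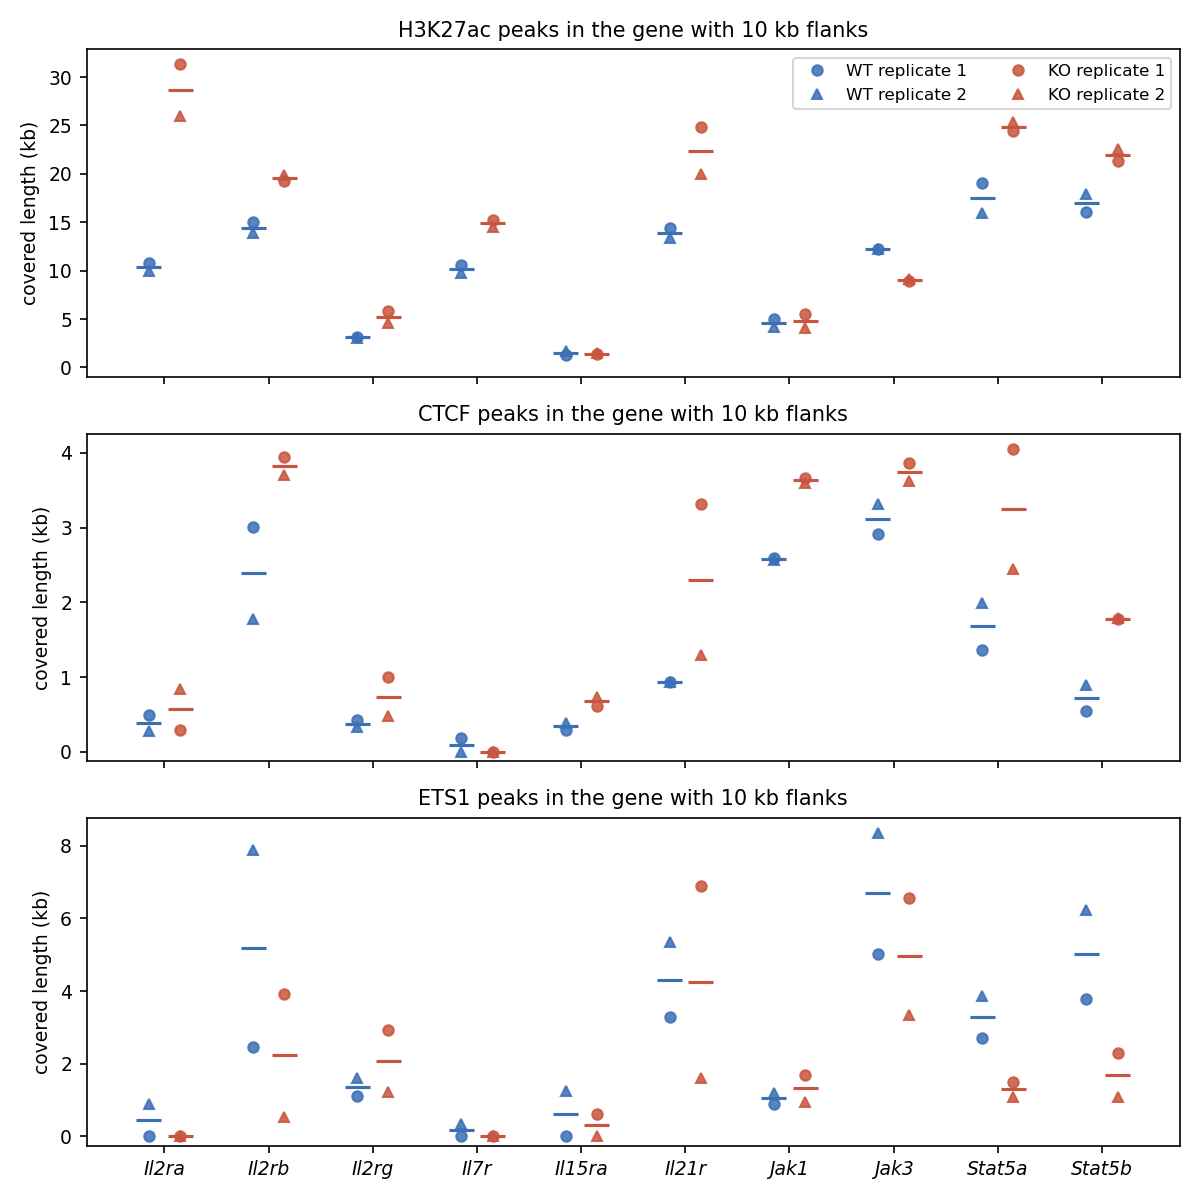
Covered length in kb (vertical axis, from near 0) at each of the 10 genes with 10 kb flanks, for H3K27ac, CTCF and ETS1, with 1 point per library (circles replicate 1, triangles replicate 2) and a bar at the mean of each genotype (WT blue, KO red). For H3K27ac the KO points of Il2ra, at 31.4 and 25.96 kb, stand far above the WT points at 10.8 and 10.0 kb, and Jak3 shows WT above KO.

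At Il2ra (chromosome 2 from 11642792 to 11693194), H3K27ac peaks covered 10.8 and 10.0 kb in the WT libraries but 31.4 and 25.96 kb in those of KO. The gap between the genotypes was much wider than the gap between the libraries of either genotype. The mean was 10.4 ± 0.578 kb in WT and 28.7 ± 3.83 kb in KO (SD, n = 2 libraries each), a ratio of 2.75. By title the WT spread is technical and does not measure variation between mice. The log2 ratio of Il2ra, 1.38, ranked 54th from the top among 13284 genes. The peaks did not become more numerous. There were 13 and 18 in WT and 15 and 14 in KO, and the mean covered length per peak went from 0.832 and 0.555 kb to 2.09 and 1.85 kb.

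Most of the added length at Il2ra lay in regions called in all 4 libraries. Merging peaks of the 4 libraries gave 14 regions, of which 9 were shared by all 4 and none was called in both libraries of 1 genotype only. The 9 shared regions held 10488 and 9596 bases under peaks in WT and 23978 and 21332 in KO. Of the 9 shared regions, 7 were covered further in both KO libraries than in either WT library, against 48.5% of the 16043 shared H3K27ac regions of the genome. The promoter region, from position -2648 to 537 relative to the start, had 1790 and 1520 bases under peaks in WT and 3168 and 3036 in KO. In the first stretch of the gene body, 1345 to 5101 bases past the start, the lengths were 623 and 967 bases in WT and 3696 and 3659 in KO. Further in, 7191 to 13245 bases past the start, they were 1696 and 2322 in WT and 5284 and 5486 in KO. A region 37991 to 43082 bases past the start, which is not among the shared ones, had 327 and 0 bases in WT and 5092 and 3362 in KO. KO replicate 1 alone also had peaks of 388 and 916 bases where neither WT library had any. In each of these 4 the genotypes were well apart.

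**Figure D2:**
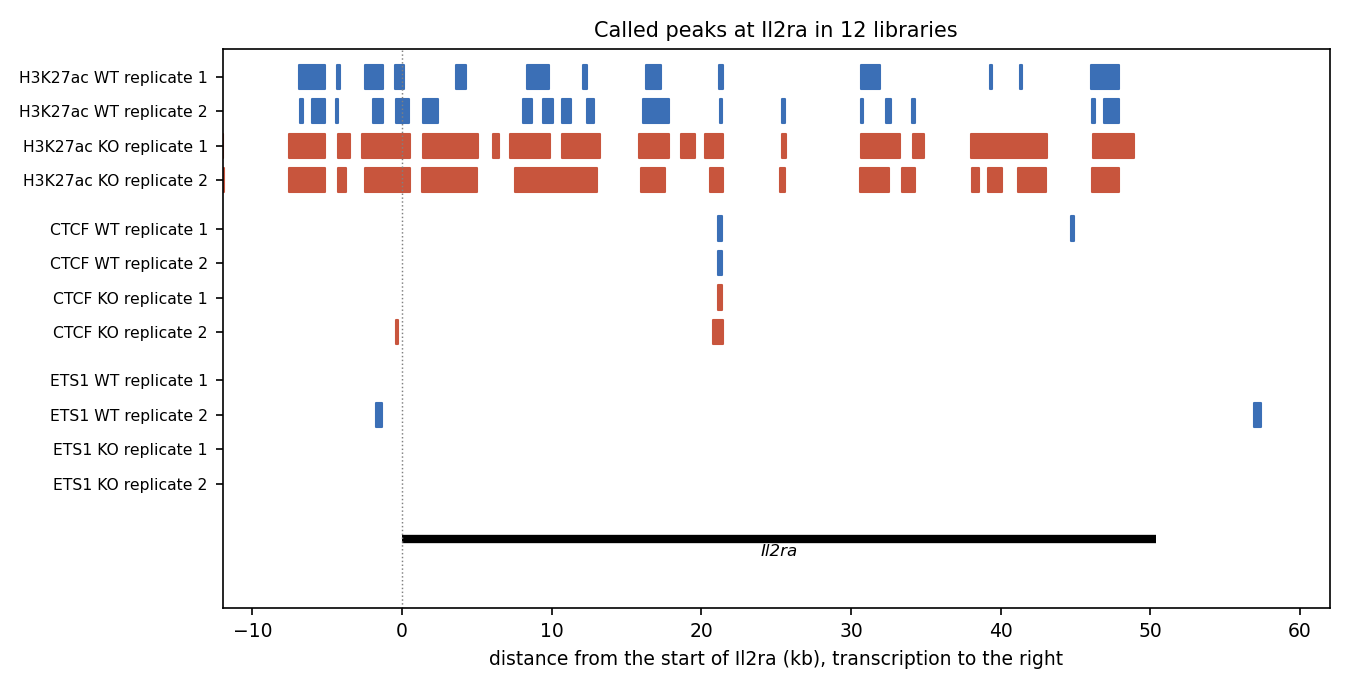
Peaks of the 12 libraries along Il2ra (rows, WT blue and KO red; the black bar is the gene), with distance from its transcription start in kb on the horizontal axis. The KO rows of H3K27ac are broad blocks where the WT rows are narrow ones, 1 CTCF region near 21 kb is in all 4 CTCF rows, and ETS1 has peaks in WT replicate 2 only.

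CTCF and ETS1 showed no such difference at Il2ra. CTCF covered 0.496 and 0.281 kb in WT, compared with 0.296 and 0.841 kb in KO, so the genotypes overlapped. Its 1 shared region, 20798 to 21451 bases past the start and within a shared H3K27ac region, had 272 and 281 bases in WT and 296 and 654 in KO. ETS1 peaks were called in WT replicate 2 alone, over 0.886 kb. Il2ra had 14.8% of its window under H3K27ac in WT, above Il2rg, Jak1 and Il15ra only, and 40.7% in KO, which placed it behind Stat5a and Il21r only.

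The other chains of the IL-2 receptor had longer H3K27ac in KO by smaller factors. Il2rb (chromosome 15 from 78479256 to 78511621), the signalling chain of the IL-2 and IL-15 receptors, had 15.0 and 13.9 kb in WT cells and 19.3 and 19.9 kb in KO cells, a ratio of 1.36 and a log2 ratio of 0.41. A broad region from 78474840 to 78487164 held most of it, at 9876 and 7972 bases in WT and 11999 and 10769 in KO. One small H3K27ac region, from 78502691 to 78502870, was called in both KO libraries only. Il2rg (chromosome X from 101264385 to 101268255) had 3.16 and 3.09 kb in WT, compared with 5.82 and 4.62 kb in KO, a ratio of 1.67 and a log2 ratio of 0.59. All 3 of its shared regions were covered further in both KO libraries, and 1 of them spanned the start, with 1812 and 2172 bases in WT and 3350 and 2914 in KO. The other 2 lie in the flanks and overlap the neighbours Foxo4 and Med12.

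Il7r (chromosome 15 from 9506159 to 9529941), the chain that binds IL-7 on naive and memory T cells, had 10.5 and 9.75 kb of H3K27ac in WT cells and 15.3 and 14.5 kb in KO cells (log2 ratio 0.51). Nearly all of it belonged to 1 merged region that ran from position -6438 to 8052 relative to the start, with 9885 and 9536 bases in WT and 14491 and 13766 in KO. The WT libraries broke this stretch into more peaks. They had 8 peaks each at the gene, against 3 and 4 in KO. Il7r was nearly bare of the other proteins, with CTCF in WT replicate 1 alone (0.179 kb) and ETS1 in WT replicate 2 alone (0.346 kb).

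Il21r (chromosome 7 from 125603252 to 125634397), the IL-21 binding chain, had 14.4 and 13.4 kb of H3K27ac in WT, compared with 24.8 and 19.99 kb in KO, a ratio of 1.61 and a log2 ratio of 0.65. Of its 8 shared regions, 4 were covered further in both KO libraries and 2 in both WT libraries, so the gene did not move as 1 block. The region over the start went from 5623 and 5999 bases in WT to 8337 and 7138 in KO. An intragenic region 18859 to 20704 bases past the start had 1650 and 1846 bases in WT and 1475 and 1114 in KO. Il15ra (chromosome 2 from 11705172 to 11733985) had a single shared H3K27ac region, at its start, and 1.30, 1.75, 1.34 and 1.46 kb in WT replicates 1 and 2 and KO replicates 1 and 2. The genotypes overlapped there. Its window meets that of Il2ra, so the 2 genes are neighbours on the chromosome.

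The 2 kinases did not follow most of the receptors. Jak1 (chromosome 4 from 101151974 to 101265282) had 4.96 and 4.16 kb of H3K27ac in WT cells and 5.56 and 4.11 kb in KO cells, so that the genotypes overlapped. Its start region was slightly shorter in both KO libraries, at 1114 and 1079 bases in WT and 1044 and 925 in KO. The largest region of the gene, 9470 to 12495 bases past the start, had 2921 and 2903 bases in WT and 3026 and 2514 in KO. A small region from 101155503 to 101155886, near the 3′ end, was called in both KO libraries only.

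At Jak3 (chromosome 8 from 71676383 to 71690577), H3K27ac covered 12.2 and 12.3 kb in WT, compared with 8.89 and 9.10 kb in KO. The libraries of each genotype lay close together and the genotypes were well apart, with means of 12.3 ± 0.00778 kb and 8.99 ± 0.148 kb (SD, n = 2 libraries each). The WT spread is technical by title and does not measure variation between mice. Its log2 ratio of -0.41 ranked 286th from the bottom of 13284 genes. The difference was in the flanks, not in Jak3 itself. Within the gene body H3K27ac covered 4.06 and 3.48 kb in WT cells and 3.80 and 4.01 kb in KO cells, which overlap, and the log2 ratio of Jak3 was 0.040 without flanks and 0.021 with flanks of 50 kb. The region over the start had 4205 and 4165 bases in WT and 4165 and 4439 in KO.

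Of the 2 flanking regions that carried the difference at Jak3, the upstream one overlaps Unc13a and the downstream one B3gnt3. The upstream region, from 71666818 to 71673124, had 5633 and 6246 bases of H3K27ac in WT and 3796 and 3629 in KO. ETS1 had 2 regions in that upstream flank, 1 with 1372 and 1782 bases in WT and 1769 and 0 in KO, and 1 with 1122 and 1782 bases in WT and 1722 and 1410 in KO. Downstream, from 71692403 to 71693865, H3K27ac went from 1377 and 1360 bases in WT to 150 and 284 in KO. At that downstream place CTCF and ETS1 peaks did not shrink. CTCF had 1119 and 1196 bases there in WT and 1243 and 1365 in KO, and ETS1 had 1264 and 1904 in WT and 1866 and 1475 in KO.

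**Figure D3:**
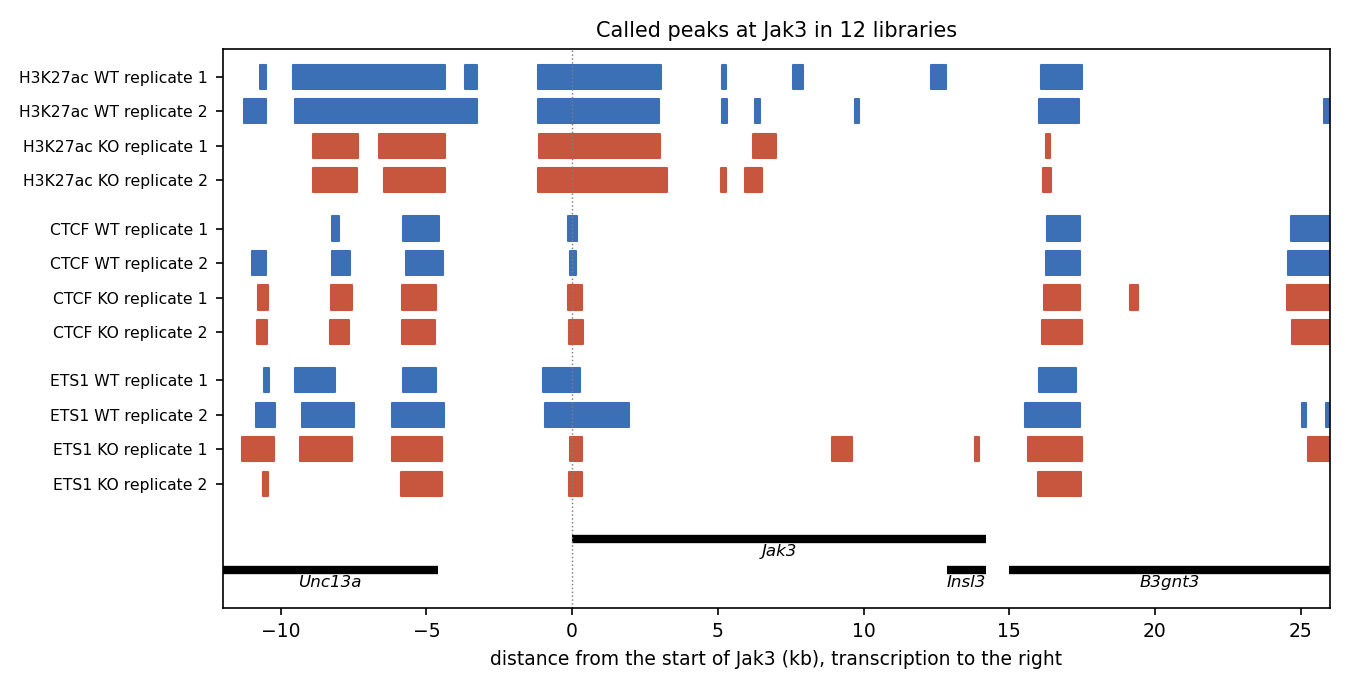
Peaks of the 12 libraries around Jak3 (rows, WT blue and KO red; black bars are genes), with distance from the transcription start in kb on the horizontal axis. H3K27ac over the start has the same extent in all 4 rows, while the blocks upstream over Unc13a and near 16 to 17 kb over B3gnt3 are shorter in KO. CTCF and ETS1 over B3gnt3 stay near the WT extent.

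Stat5a and Stat5b stand side by side on chromosome 11, from 100859351 to 100885169 and from 100780731 to 100859004, and are transcribed away from each other, so that they share regions in their windows. Stat5a had 19.1 and 16.0 kb of H3K27ac in WT, compared with 24.4 and 25.4 kb in KO, a ratio of 1.42 and a log2 ratio of 0.48. It had the highest share of its window under H3K27ac among the 10 genes in both genotypes, at 38.3% in WT and 54.3% in KO. Its widest region, from 100878959 to 100889503 over the 3′ end and into Stat3, had 7458 and 6894 bases in WT and 10437 and 9493 in KO. Stat5b had 16.1 and 17.9 kb in WT cells and 21.3 and 22.6 kb in KO cells (log2 ratio 0.35).

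Of 6 distinct H3K27ac regions at the 10 genes that were called in both KO libraries and in no WT library, 4 lay at the STAT5 genes. The widest 3 were inside Stat5b, from 100787529 to 100788442, from 100802016 to 100802563 and from 100801021 to 100801482. The other was inside Stat5a, from 100867197 to 100867470. Each was under 1 kb wide, and none overlapped a CTCF or ETS1 region.

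ETS1 was the only one of the 3 antibodies with a shorter covered length in KO at STAT5. At Stat5a it was 2.71 and 3.88 kb in WT, compared with 1.503 and 1.07 kb in KO (log2 ratio -0.91). Stat5b had 3.77 and 6.24 kb in WT cells and 2.30 and 1.07 kb in KO cells (log2 ratio -1.16). That ratio ranked 8th from the bottom of 16474 genes with an ETS1 peak. Both values rest in large part on the same region at the 5′ end of Stat5a, from 100859367 to 100861887, which belongs to both windows. It had 2521 and 2490 bases of ETS1 in WT and 772 and 885 in KO. KO replicate 1, with the longest ETS1 list, and KO replicate 2, with the shortest, were alike there. Inside Stat5b alone the genotypes hardly separated, with 1.253 and 3.56 kb in WT, compared with 1.245 and 0.185 kb in KO. By number of peaks Stat5a goes the other way, with 2 in each WT library and 4 and 3 in KO, the long WT peak at the start being called as 2 shorter ones in each KO library, and KO replicate 1 having a further peak of 149 bases in the gene.

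Over that same place the other marks were not shorter. The H3K27ac region around the start of Stat5a had 3973 and 3977 bases in WT and 4998 and 4292 in KO, and the CTCF region had 549 and 493 bases in WT and 706 and 560 in KO. ETS1 over the second start of Stat5a was still called in all 4 libraries, whereas the part over the first start and stretches downstream of the second were called in WT and not in KO. At the start of Stat5b, ETS1 had 189 and 1385 bases in WT and 582 and 185 in KO, with no order between the genotypes. A region inside Stat5b, from 100814461 to 100814959, was the only ETS1 region at the 10 genes called in both libraries of 1 genotype and neither of the other, with 303 and 499 bases in WT.

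**Figure D4:**
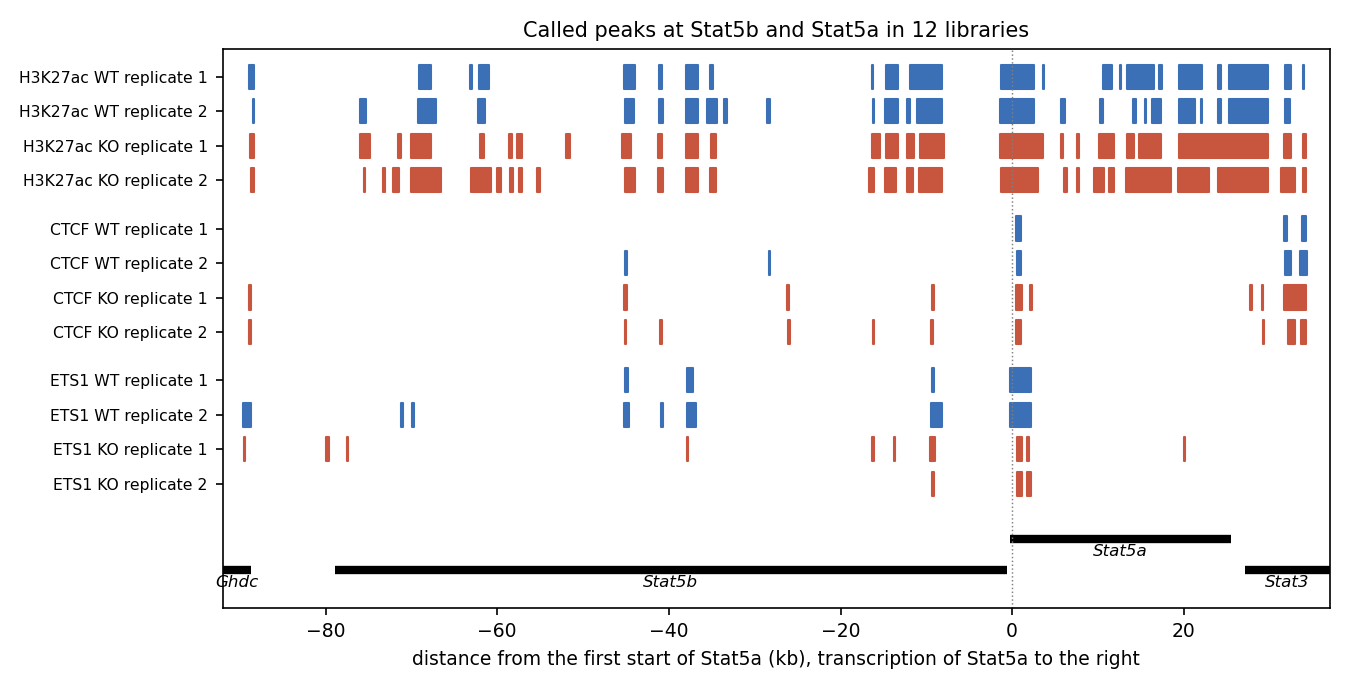
Peaks of the 12 libraries across Stat5b and Stat5a (rows, WT blue and KO red; black bars are genes), with distance from the first start of Stat5a in kb on the horizontal axis. The ETS1 block at 0 to about 2 kb is long in both WT rows and split into short blocks in both KO rows, and H3K27ac is wider in KO over the 3′ part of Stat5a.

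Counted as regions, the changes of H3K27ac towards KO at the 10 genes were near the shares of the whole genome. Of 88 distinct regions, 46 were shared by all 4 libraries, against 44.0% of all H3K27ac regions, 6 were KO-only against 7.10%, and 0 were WT-only against 2.70%. Of the 46 shared regions, 24 were covered further in both KO libraries, against 48.5% of shared regions in the genome, and 6 in both WT libraries, against 7.89%. CTCF had 46 distinct regions with 18 shared against a background of 53.0%, 8 KO-only against a background of 8.61%, and 0 WT-only against 0.580%. Of its 18 shared regions, 12 were covered further in both KO libraries, against 37.4%, and 2 in both WT libraries, against 8.04%. ETS1 had 54 with 11 shared against 11.9%, 1 WT-only against 1.12% and 0 KO-only against 0.518%. All 11 shared ETS1 regions overlapped a shared H3K27ac region, as did 92.0% of shared ETS1 regions in the genome. A shared CTCF region was met by 5 of the 11, or 45.5%, against 78.5%.

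The longer H3K27ac at these genes has to be read against the longer KO lists. As a share of the covered length of its own library, which moves the median of all genes by -0.21 on the log2 scale, H3K27ac was higher in both KO libraries at 4 of the 10 genes, against a background of 20.8%. These were Il2ra with a log2 ratio of 1.01, Il21r and Il2rg with 0.28 each, and Il7r with 0.15. It was lower in both KO libraries at Jak3 (-0.77) and Il15ra (-0.31), 2 of 10 against a background of 31.4%. Il2rb, Stat5a and Stat5b had log2 ratios of 0.05, 0.11 and -0.02 on this scale, with overlapping genotypes. By number of peaks, 2 of the 10 genes were higher in KO (Il2rg and Stat5b) and 2 in WT (Il7r and Stat5a), against backgrounds of 14.5% and 4.96%. Marker genes of B cells had a summed H3K27ac length of 5.12 to 6.48 kb in WT and 9.72 to 10.5 kb in KO, with Pax5 and Ms4a1 at 0. Most of it was in flanks, such as those of Cd79a, which had no peak in the gene. Of the 5 genes, 1, Ebf1, had a peak inside, over 0.685 and 0.853 kb in WT cells and 2.23 and 1.39 kb in KO cells. Those of CD8 T and NK cells had 0.953 to 1.29 kb in WT and 1.201 to 1.55 kb in KO, with a peak inside 2 of 5 genes and Cd8a, Ncr1 and Klrb1c at 0. Myeloid markers had 4.26 to 5.69 kb in WT and 5.55 to 7.60 kb in KO, with a peak inside 3 of 5 genes and Lyz2 and Cebpa at 0. Erythroid markers had 1.53 to 1.63 kb in WT and 2.29 to 2.48 kb in KO, with a peak inside 2 of 5 genes and Gata1, Hbb-bs and Alas2 at 0. The part of such cells in the results was not tested.

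**Figure D5:**
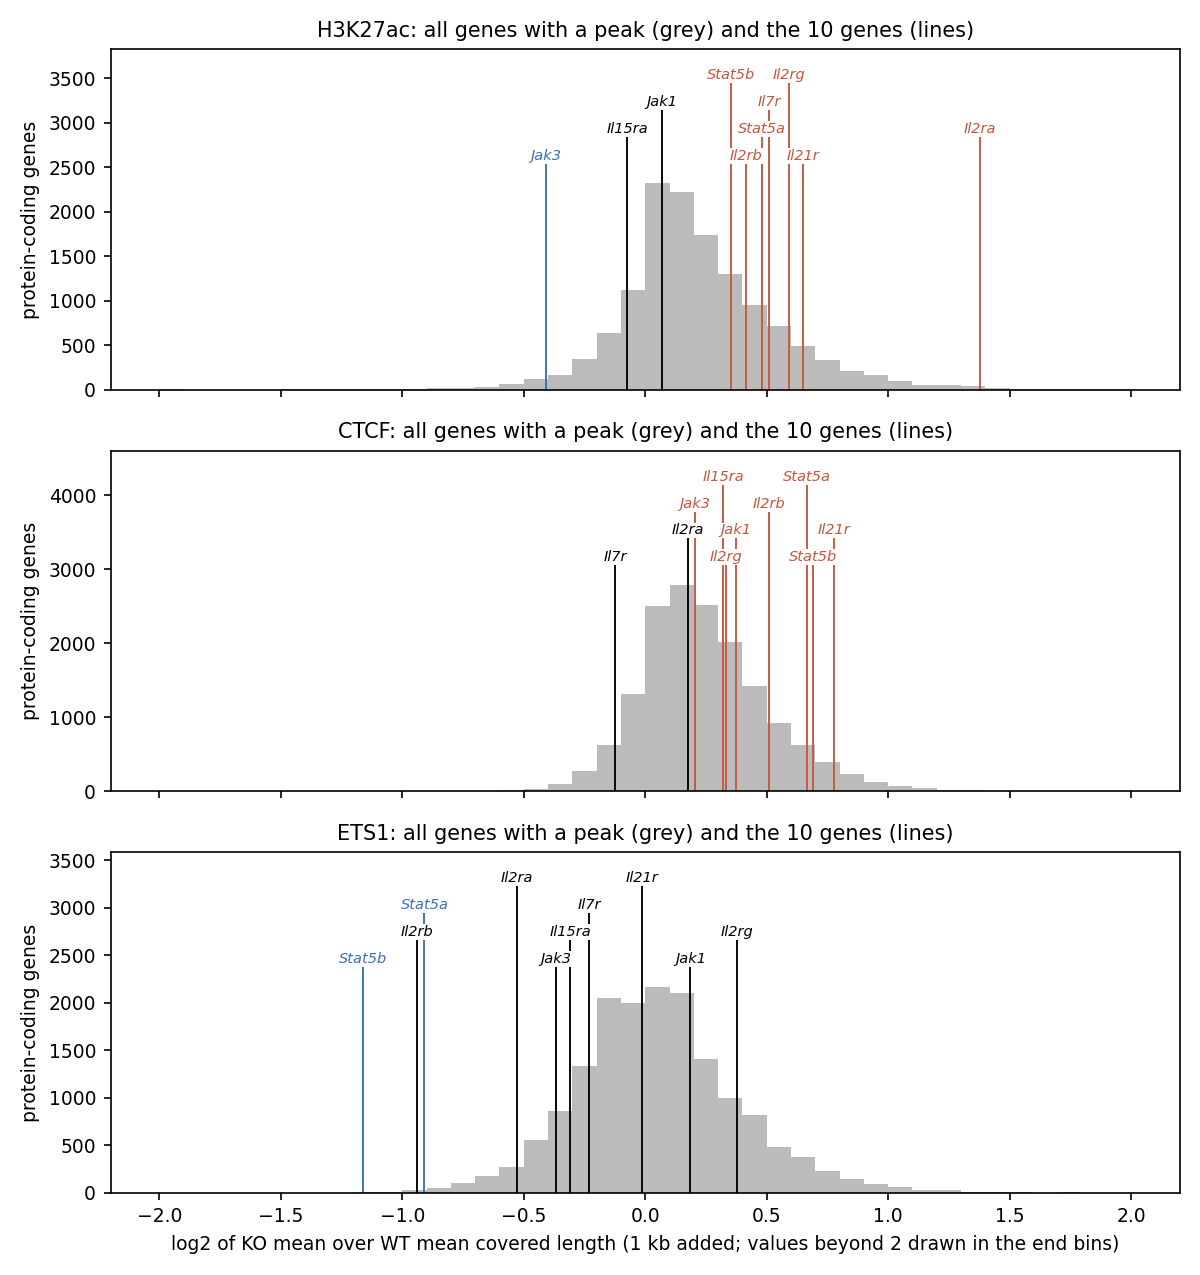
Number of protein-coding genes (grey bars, vertical axis) by log2 ratio of KO to WT covered length with 1 kb added (horizontal axis), for the 3 antibodies, with the 10 genes as lines (red where both KO libraries are higher, blue where both WT libraries are, black where they overlap). For H3K27ac, Il2ra at 1.38 lies in the right tail and Jak3 at -0.41 in the left, and for ETS1, Stat5b at -1.16 and Stat5a at -0.91 lie in the left tail.

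CTCF peaks were longer in both KO libraries at 8 of the 10 genes, against a background of 56.3% of 16073 genes with a CTCF peak, and in both WT libraries at none, against 3.02%. The median log2 ratio was 0.35 over the 10 genes and 0.21 over all genes with a peak. Il21r had the highest ratio, with 0.933 and 0.927 kb in WT cells and 3.31 and 1.30 kb in KO cells (log2 ratio 0.77). Stat5b followed with 0.549 and 0.899 kb in WT, compared with 1.77 and 1.79 kb in KO (0.69), and Stat5a with 1.36 and 1.99 kb in WT cells and 4.05 and 2.45 kb in KO cells (0.67). Il2rb had 3.01 and 1.77 kb in WT, compared with 3.94 and 3.70 kb in KO. Jak1 had 2.59 and 2.56 kb in WT cells and 3.66 and 3.60 kb in KO cells, a narrow spread within each genotype, and Jak3 had 2.92, 3.31, 3.86 and 3.62 kb in the same order. At Il2rg and Il15ra no library had more than 1 kb. With the same number of best-scored peaks from each library, 3 of the 10 genes kept both KO libraries higher, against 41.6% of all genes. As a share of the library's covered length, 4 of the 10 did (Il15ra, Il21r, Jak1 and Stat5b), against 24.8%.

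Of the 8 KO-only CTCF regions, 7 overlapped an H3K27ac region called in all 4 libraries, against 33.8% of the 4095 KO-only CTCF regions of the genome. Shared CTCF regions at the 10 genes were also above the genome, at 11 of 18, or 61.1%, against 8079 of 25226. The high overlap at these genes was therefore not limited to KO-only regions. The genome shares also take in regions outside gene windows, so they are not matched to the 10 genes. With equally many best-scored peaks per library, 1 region at the 10 genes was KO-only in place of 8. The KO-only CTCF regions over starts were at Il21r, from 125602972 to 125603603 with 632 and 323 bases in KO, and at Jak1, from 101264936 to 101265301 with 366 and 278 bases. Another lay inside Stat5b, 68 to 339 bases past its first start, from 100850242 to 100850513. Il2rb had 2 inside the gene, from 78493625 to 78494097 and from 78510299 to 78511008. Stat5a had 1 past its 3′ end, from 100888725 to 100889009. Stat5b had 1 in the flank, from 100770740 to 100771011, and 1 further inside the gene, from 100833455 to 100833721, which was the 1 of the 8 outside any H3K27ac region.

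ETS1 separated the genotypes at 2 of the 10 genes, Stat5a and Stat5b, both longer in WT, against a background of 7.47%. No gene was longer in both KO libraries, against 3.86%. The median log2 ratio was -0.34 over the 10 genes and 0.04 over all genes with an ETS1 peak. Libraries of 1 genotype differed widely. Il2rb had 2.47 and 7.88 kb in WT, compared with 3.92 and 0.528 kb in KO, and Il21r 3.28 and 5.34 kb in WT cells and 6.90 and 1.61 kb in KO cells, so nothing can be read from their means. Jak3 had 5.03 and 8.35 kb in WT, compared with 6.56 and 3.35 kb in KO, with overlap over the whole window. Its start region alone, from position -1001 to 1959, had 1270 and 2886 bases in WT and 398 and 466 in KO. Of the 11 shared ETS1 regions, 3 were covered further in both WT libraries (at Jak3, Stat5a and in the upstream flank of Il21r), against a background of 18.4%, and 0 in both KO libraries, against 7.73%. Il2rg had 1.12 and 1.59 kb in WT cells and 2.91 and 1.22 kb in KO cells, and Jak1 0.886 and 1.199 kb in WT, compared with 1.70 and 0.952 kb in KO.

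The wider pathway was taken as 26 further genes in 4 lists. For H3K27ac, 21 of the 26 were longer in both KO libraries and 0 in both WT libraries, against the same 54.0% and 6.37%, with 4 without a peak, and the median log2 ratio of the 22 with a peak was 0.38. Those backgrounds are shares of genes with a peak. The pathway lengths were not scaled to the longer KO lists, a scaling that took the count among the 10 genes from 7 to 4. The part of list length in the pathway counts was not tested. Of the 10 targets of STAT5 and IL-2 signals, 10 were longer in KO. Ccnd2, the cyclin that drives T cells into the cell cycle, had 5.11 and 6.31 kb in WT cells and 16.4 and 14.7 kb in KO cells (log2 ratio 1.30). Lif, a cytokine gene, had 4.23 and 3.31 kb in WT, compared with 6.37 and 6.39 kb in KO (0.63). Of the 7 inhibitors of the pathway, 6 were longer in KO. Socs2, a feedback inhibitor, had 0.762 and 0 kb in WT cells and 1.07 and 1.64 kb in KO cells (0.77), and Socs3 was the 1 with overlap. Of the 6 ligands, 2 had a peak and both were longer in KO. Il21, made by helper T cells, had 3.61 and 4.24 kb in WT, compared with 10.0 and 9.99 kb in KO (1.16), and the other was Il4. Il2, Il7, Il9 and Il15 had no H3K27ac peak. The 3 other receptors, Il4ra, Il9r and Crlf2, were longer in KO.

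CTCF was longer in both KO libraries at 19 of the 26 pathway genes (background 56.3%) and in both WT libraries at 0 (background 3.02%). The backgrounds are shares of genes with a peak, and 24 of the 26 had a CTCF peak. Il4ra, the IL-4 receptor chain, had 1.17 and 0.845 kb in WT cells and 3.84 and 2.64 kb in KO cells (log2 ratio 1.08). The kinase gene Pim2 followed at 0.87, the survival gene Mcl1 at 0.76 and Ccnd2 at 0.61. For ETS1, with a peak at 25 of the 26, 3 were longer in both WT libraries and 1 in both KO libraries, against 7.47% and 3.86%. Myc had 2.68 and 3.44 kb in WT, compared with 2.00 and 1.94 kb in KO (-0.45), and Ccnd2 had 4.40 and 4.19 kb in WT cells and 3.40 and 2.65 kb in KO cells (-0.40). The remaining one was Ptpn2, a phosphatase that acts on JAKs and STATs, at -0.30. Cish, another feedback inhibitor, had 3.79 and 4.46 kb in WT, compared with 6.32 and 4.88 kb in KO (0.36).

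The genes with peak lengths most like those of Il2ra over the 12 libraries were Cd28, Cd200, Ms4a6c, Ms4a6b and Iars. Likeness was the mean absolute difference in log2 of covered kb plus 1, which was 0.31 for Cd28 and 0.37 for Iars. Cd28, the costimulatory receptor engaged in the culture, had 7.73 and 5.26 kb of H3K27ac in WT cells and 20.6 and 17.4 kb in KO cells. Cd200, a surface glycoprotein, had 8.21 and 8.03 kb in WT, compared with 28.7 and 22.1 kb in KO. Like Il2ra, none of the 5 had more than 1 kb of ETS1 in any library. Likeness was measured over these same H3K27ac and ETS1 libraries, so the similarities to Il2ra follow from how the 5 were picked.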

How the data were processed

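Peaks were taken from 14 CUT&RUN libraries of Th1 cells, each with its own deposited list. Per the submitters' processing notes, BWA and the GRCm38 build were used. Options of the peak caller and any duplicate removal: not given in the sources used here. The 9 columns have no header. The deposited score is 10 times −log10 q without decimals, the authors' fold is a ratio to background, and the deposited −log10 p and −log10 q come from their caller. Here these served only to rank peaks inside a list. Per-library depth is unknown, so no interval or floor is given.

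The 10 genes and all gene lists were chosen with earlier results of these data known. Windows were gene bodies of the RefSeq table of GRCm38.p6 with 10 kb flanks on chromosomes 1 to 19, X and Y. Covered length was compared between genotypes as log2 of (KO mean + 1 kb) over (WT mean + 1 kb). A gene counted as higher in a genotype when both its libraries exceeded both of the other, beside the share of all genes with a peak. Peaks overlapping by at least 1 bp were merged into regions, called shared (all 4 libraries), WT-only or KO-only (both libraries of 1 genotype, none of the other). Two-sided exact permutation tests and all computing used Python 3.11.15, numpy 2.4.6 and pandas 2.3.3, tested on simulated data. Named beside the 10 genes were, per antibody, up to 4 pathway genes with the highest and 4 with the lowest ratio among those without overlap, the 5 genes most like Il2ra, and WT-only and KO-only regions, at most 3 per gene and antibody. Alternatives changed the flanks, the peaks kept, the scaling, the measure, the pseudocount, the merging, and the libraries.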

Additional observations from a re-analysis of the deposited data

How the results depend on the processing

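The peak lists limit what can be said. There are no counts, 1 WT biological replicate by title, and no test that can pass a threshold. ETS1 lists differ several-fold in length within a genotype, so ETS1 counts depend most on the libraries used. Extent and number of peaks are different measures and disagree for H3K27ac.

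The count of genes longer in KO for H3K27ac, 7 in the report, was 4 as a share of the library and 2 by number of peaks, with a median log2 ratio of 0.077 and 0.0030 in place of 0.45. It stayed between 6 and 8 under the other settings, and leaving out 1 library in turn gave 7 to 8 genes and medians of 0.40 to 0.52. Dropping a library cannot make separate genotypes overlap. For each antibody these left-out counts of genes could therefore stay or rise but not fall, and they are no check of stability. The count longer in WT, 1 in the report, was 0 without flanks and 0 with 50 kb flanks, 2 as a share of the library, 2 by number of peaks, and 1 to 2 with 1 library left out. Among genes whose genotypes did not overlap, the H3K27ac log2 ratios that changed sign were those of Jak3 without flanks (0.040) and with 50 kb flanks (0.021), of Stat5b as a share of the library (-0.022), and by number of peaks of Il2ra (-0.090), Il2rb (-0.10), Il7r (-1.0) and Stat5a (-0.18). Of the 2 genes with overlap, Jak1 (0.070) became -0.57 with the better peaks of each list, -0.016 with equally many, -0.25 as a share and -0.12 to 0.24 with 1 library left out, and Il15ra (-0.073) became 1.03 with 50 kb flanks and 0.32 by number of peaks, with -0.19 to 0.059 when 1 library was left out. Flanks of 50 kb around Il15ra take in much of Il2ra, so the value of 1.03 includes H3K27ac of Il2ra. With equally many best-scored peaks per library, WT-only regions went from 0 to 1 and KO-only regions from 6 to 3. With 1 library left out they numbered 1 to 4 and 10 to 17. Region counts of this kind could not fall either, because fewer libraries then have to meet the rule.

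For CTCF, 8 genes were longer in KO. The count was 4 among the better peaks of each list (those above its median −log10 q), 3 with equally many peaks per library, 4 as a share of the library, and 8 to 9 with 1 library left out. The median of 0.35 became 0 with the better peaks, 0.10 with equally many, 0.20 as a share, 0.50 by number of peaks, 0.73 with 0.1 kb and 0.49 with 0.5 kb added in place of 1 kb, and 0.33 to 0.46 with 1 library left out. Genes longer in WT numbered 1 with equally many peaks and 0 to 1 with 1 library left out. Among genes without overlap, signs changed with the better peaks at Il2rb (-0.12), Il2rg (-0.12) and Jak1 (-0.050), with equally many at Il15ra (-0.19) and Jak3 (-0.32), and as a share at Jak3 (-0.10). With overlap, Il7r went from -0.12 to 0.19 with 50 kb flanks and Il2ra from 0.18 to -0.099 without KO replicate 2. Regions called in WT only went from 0 to 2, and in KO only from 8 to 1, with equally many peaks, and with 1 library left out to 0 to 2 and 10 to 13.

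For ETS1, the 2 genes longer in WT became 4 with equally many peaks per library, 0 by number of peaks, and 2 to 7 with 1 library left out (7 without WT replicate 1 and 5 without KO replicate 1). Genes longer in KO, 0 in the report, numbered 1 with equally many peaks, 1 as a share, 1 by number, and 0 to 3 with 1 library left out (3 without KO replicate 2). Stat5a and Stat5b had a negative ratio in each fit that left out a library, which follows from their lack of overlap. By number of peaks the ratio of Stat5a was 0.58. The ratios of Il15ra, Il21r, Il2rg, Jak1 and Jak3, with overlap, each changed sign under at least 1 setting. The median of -0.34 was -1.0 with 0.1 kb added, and -0.76 to 0 with 1 library left out, reaching 0 without WT replicate 2. WT-only regions, 1 in the report, were 0 with equally many peaks and 1 to 14 with 1 library left out (14 without WT replicate 1), and KO-only regions 0 to 15 (15 without KO replicate 2). Except where the list was cut or a library dropped, the cause of these changes was not tested.

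Pairing the libraries by replicate number, as a replicate block, gave the same counts of genes: 7 longer in KO and 1 in WT for H3K27ac, 8 and 0 for CTCF, 0 and 2 for ETS1. The numbers mark technical replicates in WT and biological ones in KO, so they pair nothing by design. Genes without overlap keep their direction under any pairing, so these counts could not fall.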
